A study of Mus musculus with 6 samples.

Results

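The genes described here are the cadherins and protocadherins of mouse cerebral cortex, taken as every non-control probe whose array gene name begins with Cdh and a digit or with Pcdh. This rule gave 67 genes, measured by 113 probes on 122 spots, of 27670 gene names and 41174 probes on the array. Of the 67 genes, 36 are cadherins and non-clustered protocadherins and 31 belong to the Pcdha, Pcdhb and Pcdhg clusters. The names matched the RefSeq symbols for 66 genes, and the remaining name, Pcdh21, is now Cdhr1, a cadherin-related gene. Each gene is represented by its brightest probe over the 6 arrays, and other probes are named as such.

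RNA came from cortex of male mice. The knock-out group held samples ko 53, ko 48 and ko 54, with genotype label Cux2-/-. The comparison group held WT 15, WT 62 and WT 16, which are wild type by title but Cux2+/- by genotype label. These are called WT-titled cortices, because the labels do not settle whether they carried 1 mutant allele, and neither the kind of Cux2 mutation nor age or strain is given in the sources used here. Each sample was hybridised to 1 Cy3 1-colour Agilent array, and the labels do not say that samples are separate animals, so a p-value here covers the spread between samples, which may be technical. Slide 1 carried ko 48, ko 54 and WT 15, and slide 2 carried ko 53, WT 62 and WT 16.

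Cadherins are calcium-dependent adhesion proteins that join cells by binding a like molecule on the facing membrane, and the classical ones are tied to actin through catenins. In cortex, type II cadherins and delta protocadherins are known for patterns that differ between layers and areas, and Cdh6, Cdh8 and Pcdh20 are well-known examples. The clustered protocadherins are made from tandem variable exons, each with its own promoter, and give single neurons different sets of surface proteins. The variable exons of Pcdha and Pcdhg are spliced to constant exons shared by their cluster, while the Pcdhb genes have none.

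Between 58.5% and 68.1% of probes exceeded background clearly on knock-out arrays and 62.7% to 72.7% on WT-titled arrays, and a single array detected 50 to 58 of the 67 genes. All 8 markers of cortical tissue, such as Slc17a7, Neurod6 and Emx1, were well above background on all 6 arrays. Cux2 itself differed by -0.12 (limma adjusted p = 0.838), and where its probe lies relative to the altered allele is not given, so it checks nothing about the labels. Values below are log2 signal relative to the 75th percentile of the same array, so 0 is the signal that 75% of spots lie under, and a difference of 1 is a 2-fold change. Differences are knock-out minus WT-titled and carry 95% intervals of the limma fit over all tested probes, with 3 arrays per group. The number of arrays limits the precision.

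Most of these genes gave a clear signal. Of the 67, 50 were well above background on all 6 arrays, 9 on some and 8 on none. The 8 were Cdh16, Cdh17, Cdh18, Cdh19, Cdh26, Pcdhb1, Pcdhga12 and Pcdhgb4. On the WT-titled arrays Pcdhga7 lay at the 98.8th percentile of brightness among all probes, Pcdha9 at the 97.0th, Pcdh17 at the 94.96th and Cdh13 at the 93.7th. A percentile describes a probe and not the abundance of a transcript relative to another, since probes differ in how they bind their targets. The 10 delta protocadherins had a median percentile of 85.5 and the 22 Pcdhb genes one of 61.0, against 52.2 for all genes.

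**Figure D1:**
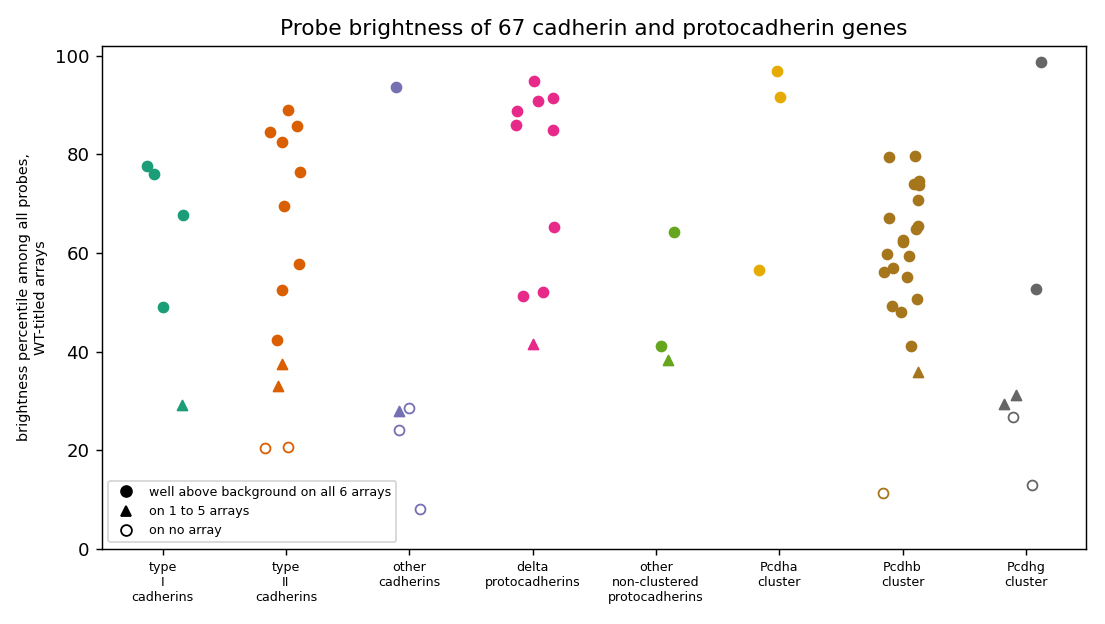
Brightness percentile among all probes on the WT-titled arrays for each of the 67 genes, by subgroup, with filled circles for genes well above background on all 6 arrays, triangles for genes above it on some and open circles for genes above it on none. Pcdhga7 is at 98.8, Pcdha9 at 97.0 and Pcdh17 at 94.96, and the 8 open circles lie at 28.5 or below.

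None of the tested family genes passed the adjusted threshold between knock-out and WT-titled cortex. A gene entered the test if its probe exceeded background clearly on every array of either group, which 53 of the 67 did, and 3 of these (Cdh9, Pcdh7 and Pcdhb11) passed through the WT-titled group alone. In limma 0 of the 53 passed an adjusted p of 0.05, against 0.129% of all 17113 tested genes, and the lowest adjusted p was 0.162. At an unadjusted p under 0.05 there were 4 genes, or 7.55% of the 53, beside 8.32% of all tested genes. Pcdh17 and Cdh1 were lower in knock-out cortex, as were 4.32% of all tested genes by this rule, and Cdh5 and Cdh9 were higher, as were 4%. By single probes, 0 of 86 tested family probes passed the adjusted threshold (0.129% of all probes) and 7 the unadjusted one (7.99% of all probes). The groups did not overlap for 3 genes (Pcdh17, Cdh15 and Cdh5), or 5.66%, beside 13.6% of all tested genes. Of these, Pcdh17 and Cdh15 were lower in the knock-outs and Cdh5 higher, beside 7.06% lower and 6.51% higher over all genes. With slide as a block, 3 family genes reached an unadjusted p under 0.05 (7.98% of all genes) and 0 the adjusted one (0.0584% of all genes). The median difference was 0.03 for the 53 and 0.00 for all genes. The interval lay inside a 1.5-fold change either way for 40 of the 53 (75.5%) and inside a 2-fold change for 49 (92.5%), beside 79.4% and 93.3% of all genes.

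**Figure D2:**
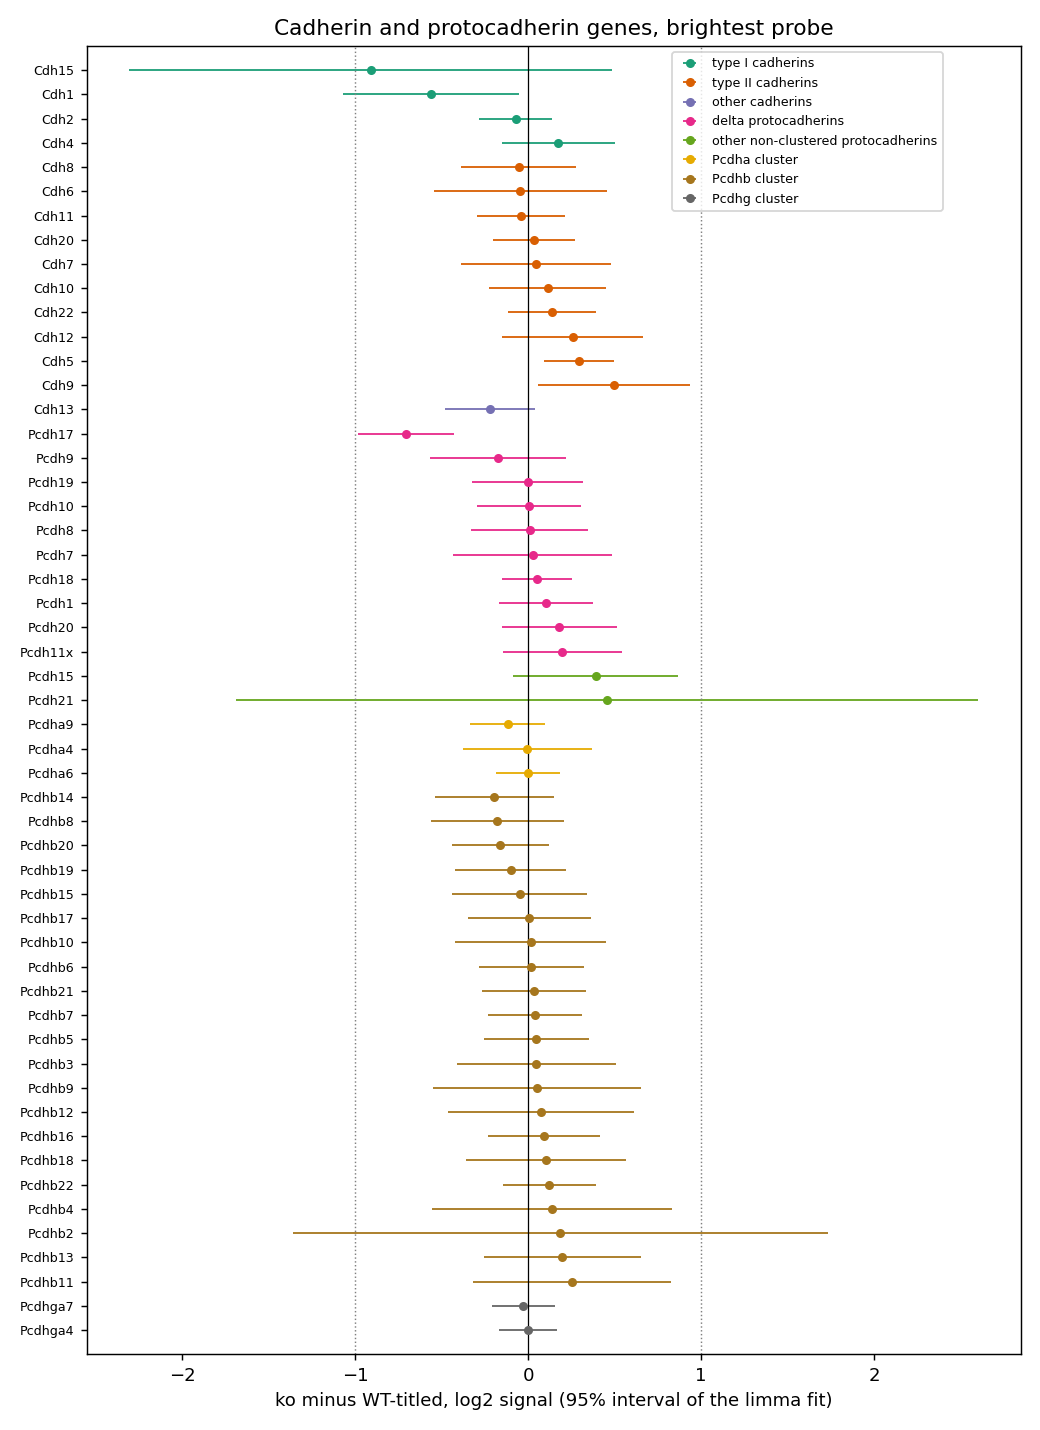
Difference between knock-out and WT-titled cortex in log2 signal (points) with 95% limma intervals (bars, 3 arrays per group) for the 53 tested genes, grouped by subgroup, with dotted lines at a 2-fold change. Pcdh17 lies at -0.71, Cdh1 at -0.56, Cdh5 at 0.29 and Cdh9 at 0.50, and the widest bars are those of Pcdh21, Pcdhb2 and Cdh15.

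Pcdh17, a delta protocadherin known for a zonal pattern in corticostriatal circuits and for a role at presynaptic sites, had the lowest p of the family. Its signal was 2.60, 2.81 and 2.60 on ko 53, ko 48 and ko 54, against 3.56, 3.22 and 3.36 on WT 15, WT 62 and WT 16. All knock-out arrays lay below all WT-titled ones. The difference was -0.71 (SE 0.12, interval -0.98 to -0.43), a ratio of 0.613, with a limma adjusted p = 0.162. It ranked 70th by p among 17113 genes, and the difference did not pass the threshold over all probes. A second probe of Pcdh17 read -0.47, -0.40 and -0.54 on the knock-out arrays, against 0.43, 0.08 and -0.02 on the WT-titled arrays. It too separated the groups, with a difference of -0.63 (SE 0.13, limma adjusted p = 0.244). The dimmest of its 3 probes gave -4.25, -3.93 and -4.17 in knock-out cortex, against -3.90, -4.03 and -4.17 in WT-titled cortex, and its groups overlapped (difference -0.08, interval -0.37 to 0.20). The difference of the brightest probe was -0.85 within slide 1, -0.685 within slide 2 and -0.77 with slide as a block (limma adjusted p = 0.169), and it lay between -0.79 and -0.47 over 16 alternative settings.

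The striatum lies under the cortex, and all 10 of the striatal markers examined were lower in the knock-outs, by a median of 0.47 on the log2 scale (2 of 10 lower at an unadjusted limma p under 0.05, beside 4.32% of all genes). Their summed signal, in units of the array's 75th percentile, was 50.8, 61.6 and 56.9 on ko 53, ko 48 and ko 54, against 96.3, 84.1 and 52.3 on WT 15, WT 62 and WT 16. The sum on WT 16 lay within the knock-out range. The dopamine receptor gene Drd1, the marker of lowest p, read -0.81, -0.60 and -0.77 on the knock-out arrays, against 0.38, 0.15 and -0.41 on the WT-titled arrays, with no overlap. All 10 microglial markers were lower as well, by a median of 0.46 on the log2 scale, and 8 of the 10 were lower at an unadjusted limma p under 0.05, with summed signals of 21.3 to 23.0 on knock-out arrays and 27.8 to 35.6 on WT-titled arrays. Of 10 astrocyte markers 9 were lower (2 at an unadjusted limma p under 0.05), with summed signals of 216.3 to 230.7 on knock-out arrays and 233.6 to 274 on WT-titled arrays. Of 10 deep-layer neuron markers 8 were lower (2 lower and 1 higher at an unadjusted limma p under 0.05), with summed signals of 57.4 to 61.9 on knock-out arrays and 63.5 to 65.2 on WT-titled arrays. The summed signals of microglial, astrocyte and deep-layer markers thus did not overlap between the groups. Nor did those of the catenins and junction partners described below (77.5 to 78.9 on knock-out arrays, 79.95 to 83.3 on WT-titled arrays). The sums of the other lists overlapped, among them hippocampal, thalamic, interneuron, oligodendrocyte and upper-layer markers. Of 10 upper-layer neuron markers 6 were lower (2 higher and 1 lower at an unadjusted limma p under 0.05). Their summed signals were 66.7 to 85.3 on knock-out arrays and 76.96 to 82.8 on WT-titled arrays. Pcdh17 did not overlap either, beside 13.6% of all tested genes without overlap. That share is for single genes. None was computed for list sums, in which the brightest genes of a list weigh most. Median differences were -0.14 for the astrocyte markers, -0.03 for the deep-layer markers and -0.05 for the upper-layer markers. The part of these lists in the Pcdh17 values was not tested. In bulk tissue, fewer cells of a type and less RNA per cell cannot be told apart.

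Pcdh17 lies on chromosome 14 in a stretch of the mouse genome that also holds Pcdh8, Pcdh20 and Pcdh9. In the order of protein-coding RefSeq genes (GRCm38.p6), Pcdh20 and Pcdh9 are adjacent, and only Olfm4 separates Pcdh8 from Pcdh17. Pcdh20, a layer IV marker in cortex, gave 1.37, 1.58 and 1.72 on knock-out arrays, against 1.60, 1.32 and 1.21 on WT-titled arrays. The groups overlapped, and the difference was 0.18 (interval -0.15 to 0.51, limma adjusted p = 0.832). Pcdh8, known as an activity-regulated protocadherin in neurons, stood at 1.60, 1.58 and 1.46, against 1.78, 1.25 and 1.59 in WT-titled cortex (difference 0.01, interval -0.33 to 0.35). Both intervals included 0.

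Pcdh9 was read by 5 probes that did not move together. The brightest gave 2.19, 2.24 and 2.19 in knock-out cortex, against 2.60, 2.003 and 2.54 in WT-titled cortex (difference -0.17, interval -0.56 to 0.22). A dimmer one, next to last in brightness, gave 0.84, 0.78 and 0.80, against 0.08, 0.55 and 0.23 in WT-titled cortex, so all knock-out arrays were higher (difference 0.52, SE 0.13, limma adjusted p = 0.367). The other 3 probes lay between -0.34 and 0.06 and their intervals included 0. Where these probes lie along the transcripts of Pcdh9 is not given in the array files, so differences between isoforms cannot be told apart from differences between probes.

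**Figure D3:**
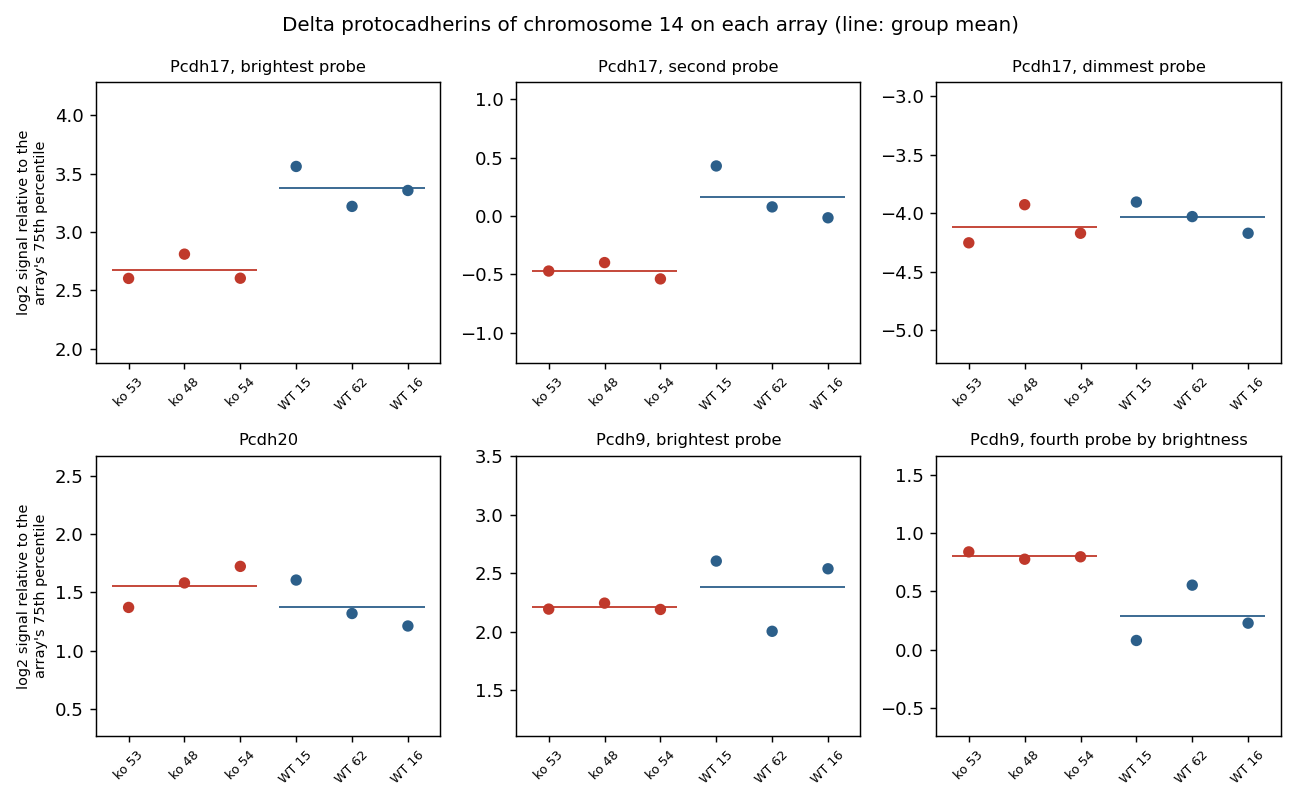
Log2 signal, scaled to the 75th percentile of each array, by array (points: red for knock-out, blue for WT-titled, line at the group mean of 3 arrays) for 3 probes of Pcdh17, for Pcdh20 and for 2 probes of Pcdh9. The first pair of Pcdh17 probes and the dimmer Pcdh9 probe separate the groups, and the dimmest Pcdh17 probe, Pcdh20 and the brightest Pcdh9 probe do not. All panels have vertical axes of the same length.

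Windows from 250 bases before to 50 bases after the gene start (RefSeq, GRCm38.p6) are printed for Pcdh17, the family member of lowest p, for Pcdh20 of the same chromosome and for Cdh8, both of which overlapped between groups. Capitals mark the letters ATCAAT, which like ATCGAT are forms bound by Cut homeodomain proteins, the family of Cux2. Both strands were searched, and ATCGAT reads the same on either strand. The windows are chr14:84443313-84443612, plus strand, chr14:88471347-88471646, minus strand, and chr8:99416422-99416721, minus strand.
Pcdh17: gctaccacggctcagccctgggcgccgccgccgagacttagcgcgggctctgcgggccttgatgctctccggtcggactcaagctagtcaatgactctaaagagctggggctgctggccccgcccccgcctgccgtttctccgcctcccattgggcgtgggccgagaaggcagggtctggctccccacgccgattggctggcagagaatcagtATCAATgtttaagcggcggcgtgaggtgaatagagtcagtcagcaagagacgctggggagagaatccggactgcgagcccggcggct
Pcdh20: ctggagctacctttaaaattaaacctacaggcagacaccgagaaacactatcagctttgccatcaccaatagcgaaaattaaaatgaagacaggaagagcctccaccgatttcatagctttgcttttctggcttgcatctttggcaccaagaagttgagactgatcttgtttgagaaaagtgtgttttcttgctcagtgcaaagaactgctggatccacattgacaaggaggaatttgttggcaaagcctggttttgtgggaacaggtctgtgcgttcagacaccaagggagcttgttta
Cdh8: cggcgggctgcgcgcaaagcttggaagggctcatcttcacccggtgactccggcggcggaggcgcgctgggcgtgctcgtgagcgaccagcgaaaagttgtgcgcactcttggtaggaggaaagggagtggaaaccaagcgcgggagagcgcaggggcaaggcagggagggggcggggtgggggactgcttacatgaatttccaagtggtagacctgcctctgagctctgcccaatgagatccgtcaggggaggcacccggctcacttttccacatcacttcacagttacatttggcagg

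Pcdh17 has ATCAAT with its first base 37 bases before the gene start. The 34 family genes on chromosome 18, namely all clustered ones and Cdh2, Pcdh1 and Pcdh12, were left out of the count over the family. Some family genes on other chromosomes had no window to search. Among 26 windows of 23 family genes on other chromosomes, that of Pcdh17 was the only one with ATCAAT or its reverse complement ATTGAT. Of the same 26 windows, 0 held ATCGAT. Over all 32851 windows of this length, 7.54% held ATCAAT or ATTGAT and 0.925% held ATCGAT. The match describes letters in the window and is no evidence of binding.

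The other bright delta protocadherins gave differences near 0. Pcdh10, which is known to guide axons and to limit excitatory synapses, stood at 2.51, 2.58 and 2.45 in knock-out cortex, against 2.75, 2.304 and 2.48 in WT-titled cortex (difference 0.00, interval -0.30 to 0.31). Its 3 other probes lay between -0.15 and 0.14. Pcdh19, an X-linked gene whose mosaic loss in people causes a form of epilepsy, stood at 1.96, 2.11 and 1.93, against 2.11, 1.73 and 2.17 in WT-titled cortex (difference 0.00, interval -0.32 to 0.32). The remaining delta members Pcdh1, Pcdh7, Pcdh11x and Pcdh18 differed by 0.03 to 0.20, and all of their intervals included 0. Of the 10 delta protocadherins, 1 reached an unadjusted limma p of 0.05, Pcdh17, beside 8.32% of all tested genes. Intervals lay inside a 1.5-fold change for 9 of the 10, beside 79.4% of all tested genes.

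Type II cadherins bind through a pair of exchanged tryptophans and mark cortical areas and layers. Cdh6, a marker of auditory and somatosensory cortex in young mice, was dim, with -4.35, -4.54 and -4.54 on knock-out arrays, against -4.63, -4.73 and -3.95 on WT-titled arrays. WT 16 was the high array and the groups overlapped (difference -0.04, interval -0.55 to 0.46). Cdh8, found on synapses of frontal and motor cortex and its striatal projection, gave 1.24, 1.41 and 1.14, against 1.58, 1.204 and 1.16 in WT-titled cortex (difference -0.05, interval -0.39 to 0.28, limma adjusted p = 0.965). Its second measurable probe stood at 0.10. The sign of these small differences in Cdh6 and Cdh8 turned in 4 of 16 alternative settings each. Settings that change only the filter cannot turn a sign.

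The brighter type II members also overlapped between the groups. Cdh22, a brain-enriched cadherin, gave 2.08, 2.22 and 2.27 in knock-out cortex, against 1.94, 2.22 and 1.996 in WT-titled cortex (difference 0.14, interval -0.12 to 0.39). Cdh20 gave 1.37, 1.60 and 1.57, against 1.53, 1.54 and 1.37 in WT-titled cortex (difference 0.03, interval -0.20 to 0.27). Cdh10 gave 1.23, 1.04 and 1.08, against 1.29, 0.81 and 0.90 in WT-titled cortex (difference 0.11, interval -0.23 to 0.45). Cdh10 had 7 probes, of which 6 were tested, and the dimmest of these was not well above background on any knock-out array (-5.83, -6.59 and -7.98, against -4.83, -5.42 and -6.12 in WT-titled cortex). Against the lowest measurable signal it was at least 1.01-fold lower in the knock-outs, so no difference could be measured (limma adjusted p = 0.631).

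Cdh9 and Cdh5 were the 2 of 10 tested type II genes at an unadjusted limma p under 0.05, beside 8.32% of all tested genes. Cdh9, known from hippocampal mossy fibre synapses, was close to background, with -4.47, -4.60 and -4.90 in knock-out cortex (well above background on 2 of 3 arrays), against -4.90, -5.50 and -5.07 in WT-titled cortex. The arrays ko 53 and ko 48 lay above all WT-titled arrays and ko 54 level with the highest of them (difference 0.50, interval 0.06 to 0.94, limma adjusted p = 0.579). It was 0.15 within slide 1 and 0.81 within slide 2. With slide as a block Cdh9 no longer reached an unadjusted p of 0.05 (difference 0.48, limma adjusted p = 0.668), and it did so in 8 of 15 alternative settings. Cdh5, the adhesion molecule of endothelial junctions, gave -1.99, -2.00 and -1.86, against -2.28, -2.30 and -2.16 in WT-titled cortex, with no overlap. Its difference was 0.29 (SE 0.08, interval 0.09 to 0.49, limma adjusted p = 0.449), and a second Cdh5 probe stood at 0.14 with an interval of -0.19 to 0.48. The 10 vessel and mural markers, Cldn5 and Pecam1 among them, had a median difference of 0.00, with summed signals of 34.0 to 38.1 on knock-out arrays and 34.1 to 36.1 on WT-titled arrays.

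Cdh11, a cadherin of excitatory synapses and mesenchymal cells, had 3 bright probes that differed among themselves. The brightest gave 0.14, 0.23 and -0.02 in knock-out cortex, against 0.31, 0.10 and 0.06 in WT-titled cortex (difference -0.04, interval -0.29 to 0.21). The next gave -0.07, -0.13 and -0.10, against 0.34, 0.34 and 0.16, and was lower on all knock-out arrays (difference -0.38, SE 0.08, limma adjusted p = 0.275). The dimmest stood at 0.12 (interval -0.18 to 0.43). The array annotates all 3 probes to the same RefSeq transcript of Cdh11.

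Among type I cadherins, Cdh2 (N-cadherin), the general adhesion molecule of neural cells and synapses, gave 0.29, 0.32 and 0.25 in knock-out cortex, against 0.48, 0.36 and 0.24 in WT-titled cortex. The groups overlapped (difference -0.07, interval -0.28 to 0.14). Cdh4 (R-cadherin) gave 0.13, 0.37 and 0.37, against 0.15, -0.12 and 0.32 in WT-titled cortex (difference 0.17, interval -0.15 to 0.50). Cdh3 was well above background on 1 WT-titled array and was not tested.

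Cdh1 (E-cadherin), an epithelial cadherin, was weak but measured on 10 spots per array, all of them well above background. The spot means were -4.38, -4.01 and -3.72 on ko 53, ko 48 and ko 54, against -3.16, -3.49 and -3.77 on WT 15, WT 62 and WT 16. Spots of 1 array varied by SDs of 0.15 to 0.17 in knock-outs and 0.08 to 0.11 in WT-titled samples, less than the arrays of a group varied (SDs 0.33 and 0.30). Only ko 54 and WT 16 overlapped. The difference was -0.56 (interval -1.07 to -0.05, limma adjusted p = 0.586). It was -0.70 within slide 1, -0.75 within slide 2 and -0.72 with slide as a block (limma adjusted p = 0.295), but 0.08 with normexp background correction. Meningeal markers had a median difference of 0.00 and choroid plexus markers one of 0.10, with summed choroid plexus signals of 4.95 to 12.6 in knock-outs and 5.19 to 13.8 in WT-titled samples.

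Single arrays stood apart for 3 other genes. Cdh15 (M-cadherin), known from muscle and cerebellar granule cells, read -1.08, -3.34 and -1.16 in knock-out cortex, against -1.0005, -0.99 and -0.86 in WT-titled cortex. The array ko 48 stood apart, and the difference of -0.91 (interval -2.31 to 0.48) was -0.17 without it. Pcdh21, the Cdhr1 of photoreceptors and olfactory bulb mitral cells, read -2.12, -2.04 and 1.36, against -1.42, -1.30 and -1.45 in WT-titled cortex. Here ko 54 was high and the other knock-out arrays were below all WT-titled ones. The difference was 0.46 (interval -1.69 to 2.60) with all arrays and -0.69 without ko 54 (limma adjusted p = 0.198).

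Markers of the olfactory bulb, among them Tbx21, Sp8 and Doc2g, moved with Pcdh21. The 7 tested bulb markers, which do not include Pcdh21, had a summed signal of 1.74, 1.89 and 8.36 on ko 53, ko 48 and ko 54, against 2.14, 2.39 and 2.16 on WT 15, WT 62 and WT 16. Their mean deviation was 1.84 on ko 54, -0.64 and -0.60 on ko 53 and ko 48, and -0.29 to -0.05 on WT-titled arrays, and their part in the Pcdh21 values was not tested. Pcdhb2 was the other gene of this kind, with -4.12, -3.22 and -5.96 in knock-out cortex, against -4.29, -4.72 and -4.86 in WT-titled cortex. Its difference was 0.19 with all arrays, -0.42 without ko 48 and 0.95 without ko 54.

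**Figure D4:**
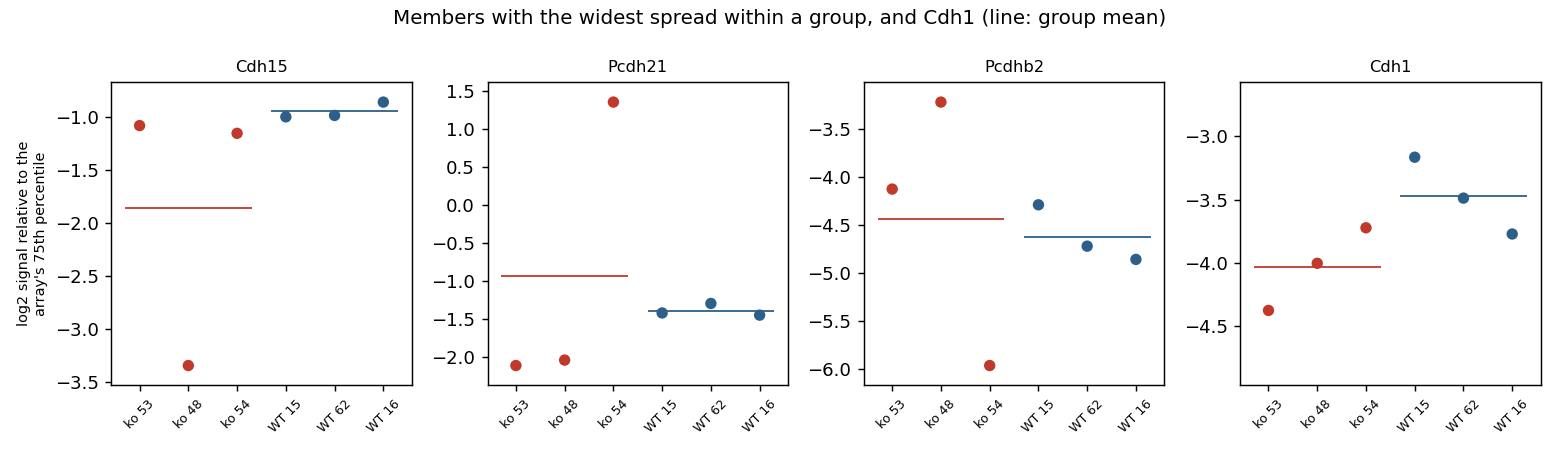
Log2 signal, scaled to the 75th percentile of each array, by array (points: red for knock-out, blue for WT-titled, line at the group mean of 3 arrays) for Cdh15, Pcdh21, Pcdhb2 and Cdh1, on axes of different length. The array ko 48 is low for Cdh15 at -3.34, ko 54 is high for Pcdh21 at 1.36 and low for Pcdhb2 at -5.96, and Cdh1 overlaps only between ko 54 and WT 16.

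Among the other cadherins, Cdh13 (T-cadherin), which is held to the membrane by a lipid anchor and lacks a cytoplasmic tail, gave 2.75, 2.90 and 2.80 in knock-out cortex, against 3.04, 2.86 and 3.21 in WT-titled cortex. Its groups overlapped through WT 62 (difference -0.22, interval -0.48 to 0.04, limma adjusted p = 0.696). Pcdh15, a tip-link protein of hair cells, gave -4.53, -4.40 and -3.78, against -4.53, -4.76 and -4.60 (difference 0.39, interval -0.09 to 0.87). Pcdh12, an endothelial protocadherin, was well above background on 2 arrays of each group and was not tested. It read -4.54, -5.28 and -4.67 in knock-out cortex, against -6.10, -3.98 and -5.02 in WT-titled cortex, with overlap. Cdh23, the other tip-link protein, was above background on 1 array of each group.

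The clustered protocadherins are described apart. All 31 lie on chromosome 18. The array covers 3 of 14 RefSeq Pcdha genes, all 22 Pcdhb genes and 6 of 21 Pcdhg genes by name. Of the 31, 26 were tested and 0 reached an adjusted or unadjusted limma p of 0.05, and in 0 of the 26 did the groups separate. Over all tested genes the shares were 0.129% at the adjusted p, 8.32% at the unadjusted p and 13.6% without overlap. Their differences ran from -0.19 (Pcdhb14) to 0.25 (Pcdhb11), with a median of 0.03. Their median absolute difference was 0.06, against 0.14 for the 27 other tested cadherins and protocadherins and 0.09 for all genes, while the median SE was 0.15, 0.14 and 0.11 in the same order. The interval lay inside a 1.5-fold change for 20 of 26 and inside a 2-fold change for 25, the exception being Pcdhb2. Over all tested genes these shares were 79.4% and 93.3%.

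Probes named for Pcdha and Pcdhg genes may lie in the constant exons, and the array files do not give their place, so which isoforms a bright probe reads is not known here. Pcdhga7 gave 5.16, 5.06 and 5.06 in knock-out cortex, against 5.18, 5.11 and 5.08 in WT-titled cortex (difference -0.03, interval -0.21 to 0.15), and its next probe stood at 0.02. The dimmest probe of Pcdhga7 was high on ko 53 alone (-2.39, -5.32 and -6.10, against -4.90, -6.04 and -5.91), with a difference of 1.01 and an interval of -1.21 to 3.23. Pcdhga4 gave -2.95, -2.98 and -2.93, against -2.98, -2.93 and -2.94 in WT-titled cortex (difference 0.00, interval -0.17 to 0.16). The other Pcdhg genes were near or below background and were not tested. Pcdha9 gave 4.14, 3.88 and 3.95, against 4.12, 4.08 and 4.12 (difference -0.12, interval -0.34 to 0.10). Pcdha6 gave 2.51, 2.57 and 2.57, against 2.55, 2.63 and 2.47 (difference 0.00, interval -0.19 to 0.18). The groups of both overlapped. Pcdha4 gave -2.66, -2.25 and -2.39, against -2.53, -2.59 and -2.16 (difference 0.00, interval -0.38 to 0.37).

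The Pcdhb genes are single-exon genes of closely similar sequence, so probes may read more than 1 of them. Pcdhb20, which had the highest brightness percentile of the cluster on the WT-titled arrays, gave 0.59, 0.55 and 0.27 in knock-out cortex, against 0.76, 0.51 and 0.62 in WT-titled cortex (difference -0.16, interval -0.44 to 0.12). Pcdhb21 gave 0.77, 0.68 and 0.43, against 0.76, 0.45 and 0.58 (difference 0.03). Pcdhb6 gave 0.08, -0.06 and -0.19, against 0.06, -0.30 and 0.02 (difference 0.02). The groups overlapped for each of these genes. Pcdhb17 gave -0.05, -0.28 and -0.15, against 0.11, -0.43 and -0.19 in WT-titled cortex (difference 0.01). The genes of lowest p in the cluster were Pcdhb20, Pcdhb14, Pcdhb8 and Pcdhb22, with limma adjusted p from 0.825 to 0.857. Pcdhb14 gave -1.32, -1.42 and -1.55 in knock-out cortex, against -1.14, -1.52 and -1.04 in WT-titled cortex (difference -0.19, interval -0.54 to 0.15). Pcdhb8 gave -3.72, -3.77 and -3.94, against -3.28, -3.83 and -3.78 (difference -0.18, interval -0.56 to 0.21). Pcdhb22 gave -1.06, -1.21 and -1.31, against -1.14, -1.39 and -1.42 (difference 0.12, interval -0.14 to 0.39). All 3 overlapped between groups. Of 21 tested Pcdhb genes 16 had a positive difference and 5 a negative one.

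A single WT-titled array stood apart for these genes. WT 62 was the lowest of the 6 arrays for 12 of 21 Pcdhb genes and for 24 of all 53 tested family members, whereas it was lowest for 16.8% of all genes. The median deviation of the clustered genes from their own means was 0.11, 0.00 and -0.05 on ko 53, ko 48 and ko 54, against 0.07, -0.20 and 0.08 on WT 15, WT 62 and WT 16. For the other family members it was -0.03, 0.04 and -0.04, against 0.11, -0.15 and -0.08. Without WT 62 the median difference of the 53 genes was -0.07, against 0.03 with all arrays. WT 62 also had the lowest 75th-percentile signal, 901.4 intensity units, against 1048 to 1215 on the other arrays.

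**Figure D5:**
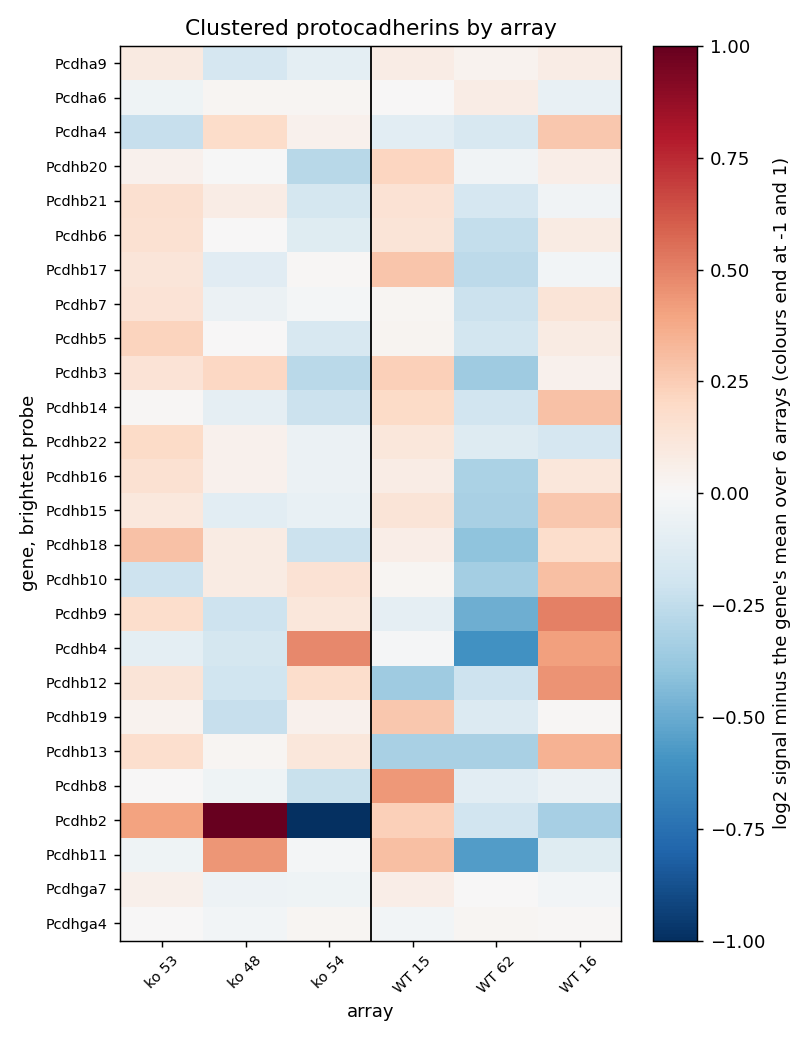
Log2 signal of each tested clustered protocadherin minus its mean over the 6 arrays (colour, red above and blue below), with knock-out arrays left of the line and WT-titled arrays right of it. The WT 62 column is mostly blue, with 12 of 21 Pcdhb genes lowest there, and Pcdhb2 runs past the ends of the scale.

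Several probes were tested for 19 genes of the family, and in 6 of them all probes had the same sign. The median range between probes of a gene was 0.15 on the log2 scale. It was widest for Cdh10 (1.60), Pcdhga7 (1.27), Pcdh9 (0.86) and Pcdh17 (0.62). The Cdh10 range rested on the probe not well above background on any knock-out array, for which no difference could be measured. The Pcdhga7 range rested on its dimmest probe, high on ko 53 alone. The other tested Cdh10 probes differed by -0.14 to 0.25 and the other Pcdhga7 probes by -0.26 to 0.02.

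Genes that work with cadherins and protocadherins were examined as lists, whose counts at an unadjusted limma p under 0.05 stand beside 8.32% of all tested genes. Of 17 catenins and junction partners 16 were tested, and 0 reached an unadjusted limma p of 0.05 (4 higher, 12 lower, median -0.05). The lowest p values belonged to Ctnnd2, a delta-catenin of dendrites (-0.18), Magi2, a scaffold (-0.15), and Ctnnbip1, an inhibitor of beta-catenin (-0.14). Of the other cadherin superfamily 12 of 21 genes on the array were tested, with 2 at an unadjusted p under 0.05, the desmosomal Dsg2 (0.32) and the calsyntenin Clstn2 (0.24). Of 15 protocadherin signalling partners 1 reached it, the protein kinase Prkca (0.47, limma adjusted p = 0.498). Among 13 tested genes of protocadherin promoter choice and cohesin, such as Ctcf, Rad21 and Smchd1, 0 reached it (median 0.02), and likewise 0 of 9 cadherin proteases (median -0.06). In all 5 lists 0 genes passed an adjusted p of 0.05 in limma.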

How the data were processed

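RNA of 3 knock-out and 3 WT-titled cortices was measured on 1 Agilent array each. Per the file headers, images were read by Agilent Feature Extraction 9.1.3.1, whose processed signal (an intensity) had been background-subtracted and detrended array by array. Raw mean signals and local backgrounds, used in 1 alternative, are uncorrected intensity columns, per the file headers. A further table deposited by the authors holds log2 values. Its columns share 1 distribution (median 6.75) and have the rank order of each array's processed signal, so by that comparison it is quantile normalised, and its centring is not stated. Which genome build the probe annotation used is not stated in these files or labels.

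Of 45018 spots, 1639 control spots and 120 spot values with an outlier flag (over 6 arrays) were left out, 0 were saturated, and spots of a probe were averaged after taking log2 of the processed signal and subtracting each array's 75th percentile. Probes entered the test if the scanner software called them well above background on every array of either group (25507 of 41174), a filter that uses the group labels. Probes were named by the array, and other genes by accession (22951 probes), symbol (6659) or synonym (3109) of a GRCm38.p6 RefSeq table. Differences were fitted with lmFit and eBayes of limma 3.58.1 (R 4.3.3) over all tested probes, with Benjamini-Hochberg adjustment at 0.05, and the fit was tested on simulated data. Figures used matplotlib 3.10.9.

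The members, lists and tests were chosen with earlier results of these data known, and the motif, the promoter windows and the genes whose value rested on 1 array after their values were seen. Values on all arrays were given for Cdh6, Cdh8, Pcdh20, members at an unadjusted p under 0.05, the 4 brightest members of each subgroup on WT-titled arrays and up to 4 clustered genes of lowest p per cluster, except members well above background on 0 or 1 array of each group. Further probes of a member were given where their own unadjusted p was under 0.05 (Pcdh17, Pcdh9, Cdh11) or where they differed in sign from the brightest by 0.5 or more, beside the brightest probe of that gene. Pcdh8, Pcdhb2 and the dimmest Pcdh17 probe were added after their values were seen. Alternatives changed the background correction, scaling, filter, slide, probe choice or arrays.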

Additional observations from a re-analysis of the deposited data

How the results depend on the processing

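In all 16 alternative settings, 0 family genes passed an adjusted p of 0.05. Pcdh17 stayed lower in each of them (-0.79 to -0.47, limma unadjusted p from 4.65e-04 to 0.0218, adjusted p from 0.161 to 0.988), as did its second probe in 15. Cdh5 stayed higher (0.22 to 0.47), with an unadjusted limma p under 0.05 in 14 of the 16 settings. The unadjusted limma p of Cdh5 was 0.413 with normexp and 0.0727 with the mean of its probes. Of 53 tested members 15 kept their sign in every setting, 3 of them clustered. Settings that change only the filter leave a probe's difference as it was (-0.7065 for Pcdh17), so they cannot turn a sign. The deposited table and quantile normalisation gave nearly the same values (-0.697 and -0.692 for Pcdh17). No paired analysis was possible because the groups share no replicate number. The 33 probes called over the whole array became 0 with normexp background correction, 3 with a filter of at least 1 array, 2 with no filter and 15 with slide as a block, and 2 to 62 with single arrays left out (62 without ko 53, 12 without ko 54, 9 without WT 15, 2 without WT 16). The 4 family genes at an unadjusted p under 0.05 became 1 with normexp and 2 with no filter, and 2 to 7 with single arrays left out (2 without ko 48, 7 without ko 54). The family median of 0.03 was 0.15 with normexp and 0.21 with unscaled arrays (for which all genes had a median of 0.17), and -0.07 to 0.07 with single arrays left out. Signs turned with normexp for Cdh1 (0.0832) and Cdh6 (0.51), without scaling for Cdh6 (0.13) and Cdh8 (0.12), with slide as a block for Cdh6 (0.0359) and with the mean of a gene's probes for Cdh8 (0.0245). They also turned without ko 54 for Cdh8 (0.01) and Pcdh21 (-0.69), without ko 48 for Pcdhb2 (-0.42), without WT 15 for Cdh8 (0.0798) and without WT 16 for Cdh6 (0.20). The cause of these shifts was not tested. Leaving out arrays in turn gave -0.19 to 0.20 for Cdh6, -0.13 to 0.08 for Cdh8, -0.42 to 0.95 for Pcdhb2 and -0.69 to 1.05 for Pcdh21. Cdh6, Cdh9, Pcdh7, Pcdh15, Pcdhb2 and Pcdhb11 lie close to background, which limits what their signal can show.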
